A study of Homo sapiens with 9 samples.

Results

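The genes described here are 34 known targets of the hypoxia response that act outside glycolysis. They were read in Huh7 cells, an established human hepatocellular carcinoma line, treated with pentagalloyl glucose (PGG), a plant polyphenol. A gene was taken through every probe set annotated with its symbol, or a former symbol, and with no other. In this way 33 of the 34 genes were measured, by 96 of the 54613 probe sets of the array, while CA9 was not analysed here. The 9 arrays held RNA of Huh7 cultures in 3 groups of 3 arrays: 48 hours of PGG at 0.1 mg/mL, 6 hours of PGG at that dose, and 48 hours of PBS as the control. The sample titles give the PBS arrays as 48 hours, which is used here, whereas their descriptions give 0 hours of PGG. No PBS arrays of 6 hours were analysed, so PGG 6 h and PBS 48 h also differ in time in culture, and both comparisons with PBS share the same 3 PBS arrays. Arrays within a group are labelled as biological replicates, with nothing said of separate cultures, so the p-values measure the spread between these samples, which may be technical. Values are log2 signals after RMA, a background correction, quantile normalization and probe summary, so a difference of 1 is a doubling. RNA was taken from whole cultures, so a larger share of responding cells and more RNA per cell cannot be told apart.

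Hypoxia-inducible factors (HIF) pair an oxygen-regulated alpha subunit, such as HIF1A or EPAS1, with ARNT. Prolyl hydroxylases that need oxygen, iron and 2-oxoglutarate mark the alpha subunit for destruction through VHL, and when they slow down the factor accumulates and binds hypoxia response elements with the core ACGTG or GCGTG. Besides glycolysis, its targets in liver and tumour cells alter blood vessel growth, collagen processing, histone demethylation, mitochondrial clearance, circadian repression and lipid storage.

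Promoter sequence is shown first because many members hold the HIF motif near a RefSeq start. The genes were listed by symbol as known targets of the hypoxia response, so how many hold the motif is not independent of how they were chosen. RefSeq promoters (GRCh38.p14, 250 bases before to 50 bases after each start) were matched for 25 of the 33 measured genes, 31 promoters in all. ACGTG, searched on both strands, stood in 19 of the 31 promoters (61.3%), against 21.4% of all 35116 promoters of the same length. GCGTG stood in 67.7% of the members' promoters, against 36.5% of all promoters, and either motif in 90.3%, against 48.4%. CACGTG, the E-box bound by MYC and by the BHLHE40 family, contains ACGTG on both strands. It stood in 10 of the members' promoters (32.3%), against 7.26% of all promoters. In the 250 bases before the start alone, ACGTG stood in 58.1% of the members' promoters, against 18.5% of all promoters. A match is a description of letters and not of a bound site.

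The 250 bases before the start are given for 6 members, on each gene's own strand, from 5′ to 3′, with ACGTG on either strand in capitals. BNIP3 (chr10:131981924-131982173, minus strand), ANKRD37 (chr4:185396591-185396840, plus strand) and PPFIA4 (chr1:203026241-203026490, plus strand) hold the motif within an E-box and were among the members that rose at both times. RORA (chr15:60627531-60627780, minus strand) and P4HA2 (chr5:132227092-132227341, minus strand) hold neither motif in these windows, and both rose at 48 hours. The RORA and P4HA2 windows belong to starts that lie 601772 and 762 bases inside the gene, counted from its outermost start, whereas the other 4 windows end at that start. DDIT4 (chr10:72273674-72273923, plus strand) holds the motif and was the member that fell at 48 hours.
BNIP3: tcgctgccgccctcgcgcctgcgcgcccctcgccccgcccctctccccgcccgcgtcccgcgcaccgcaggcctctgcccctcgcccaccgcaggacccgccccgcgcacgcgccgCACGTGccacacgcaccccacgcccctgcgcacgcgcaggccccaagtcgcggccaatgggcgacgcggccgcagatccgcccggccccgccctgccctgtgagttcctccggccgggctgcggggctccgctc
ANKRD37: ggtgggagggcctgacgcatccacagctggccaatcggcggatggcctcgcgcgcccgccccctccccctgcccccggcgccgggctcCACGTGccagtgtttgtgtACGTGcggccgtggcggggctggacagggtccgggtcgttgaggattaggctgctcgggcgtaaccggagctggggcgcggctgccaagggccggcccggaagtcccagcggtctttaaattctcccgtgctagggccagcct
PPFIA4: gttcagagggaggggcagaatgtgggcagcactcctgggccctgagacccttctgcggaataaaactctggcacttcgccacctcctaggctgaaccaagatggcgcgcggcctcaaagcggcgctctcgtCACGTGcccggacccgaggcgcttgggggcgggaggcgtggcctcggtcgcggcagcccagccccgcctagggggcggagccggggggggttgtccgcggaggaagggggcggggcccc
RORA: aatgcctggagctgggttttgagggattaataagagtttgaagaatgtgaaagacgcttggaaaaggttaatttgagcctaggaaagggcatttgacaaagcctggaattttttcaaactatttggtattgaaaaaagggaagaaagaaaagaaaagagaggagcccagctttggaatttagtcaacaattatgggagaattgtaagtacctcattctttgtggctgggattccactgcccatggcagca
P4HA2: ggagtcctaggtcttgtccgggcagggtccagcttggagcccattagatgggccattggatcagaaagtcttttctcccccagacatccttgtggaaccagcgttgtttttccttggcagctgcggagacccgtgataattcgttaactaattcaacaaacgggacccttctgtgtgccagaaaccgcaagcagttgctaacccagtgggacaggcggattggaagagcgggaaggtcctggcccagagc
DDIT4: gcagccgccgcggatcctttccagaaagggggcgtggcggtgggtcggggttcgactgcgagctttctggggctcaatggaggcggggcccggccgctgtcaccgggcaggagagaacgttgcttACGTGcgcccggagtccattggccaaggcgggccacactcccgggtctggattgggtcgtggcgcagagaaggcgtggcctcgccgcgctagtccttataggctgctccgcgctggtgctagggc
Counted back from the start, the E-box lies at -134 to -129 in BNIP3, at -162 to -157 in ANKRD37, and at -119 to -114 in PPFIA4. ANKRD37 holds a further ACGTG at -143 to -139, and the single ACGTG of DDIT4 lies at -125 to -121. ACGTG was present in members that rose and in the member that fell, and absent from 9 of the 25 genes with a promoter, TMEM45A, EFNA1 and ADM among them. For 21 of the 25 genes a window lay at the outermost start, and for KDM3A, KDM4C, P4HA2 and RORA only starts inside the gene were searched.

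**Figure D1:**
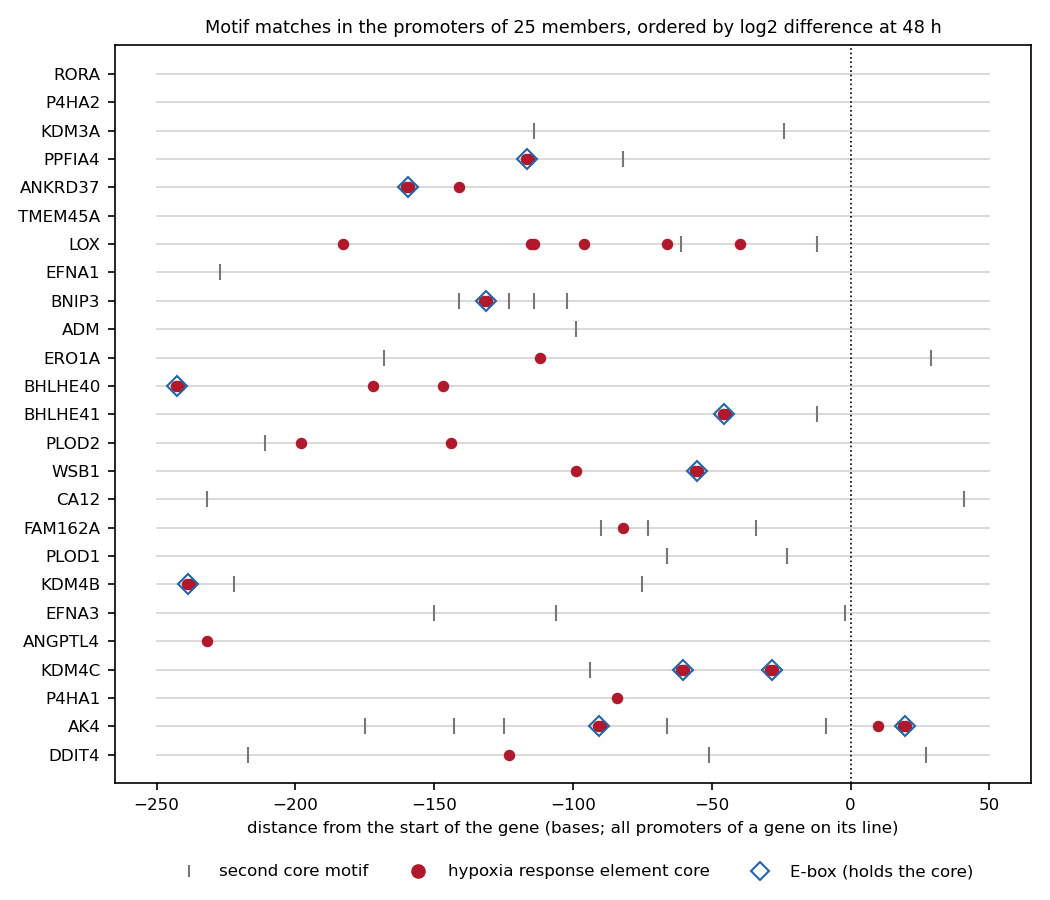
Position of motif matches relative to the start of each promoter (x axis, bases) for 25 members (1 line each, with all promoters of a gene on its line), ordered from the highest to the lowest log2 difference between PGG 48 h and PBS 48 h. Of the 31 promoters, 21 lie at the outermost start of the gene and the rest at starts inside it. Circles mark the hypoxia response element core, diamonds the E-box that contains it and ticks the second core motif, and 16 of the genes hold the core, DDIT4 at the low end of the order among them.

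At 48 hours nearly all of these genes were higher under PGG. Of the 33 measured members, 31 rose against PBS (adjusted p under 0.05, limma with Benjamini-Hochberg adjustment over 54613 probe sets), against 22.9% of all 19775 genes. DDIT4 alone fell (23.2% of all genes fell), and STC1 did not pass the test. Stricter cut-offs were taken from the methods, which ask for a mean difference beyond 1.5 with a q-value under 0.005. The methods name no scale for the difference, which was read here on log2 values. The mean differences that the study's supplement lists for ADM and LOXL2 match the log2 differences found here, whereas a figure legend writes 1.5-fold. At these stricter cut-offs 20 members were higher, against 3.09% of all genes. The median log2 difference of the members was 1.90, from -0.43 in DDIT4 to 4.32 in LOXL2, beside a median of -0.02 over all genes. LOXL2 and RORA ranked 4 and 5 from the top among 19775 genes, and NDRG1 ranked 20.

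Already at 6 hours 25 members were higher under PGG than PBS, against 15.5% of all genes, and VEGFA was lower (15.5% of all genes were lower). Of these, NDRG1, ADM and LOXL2 passed the stricter cut-offs, against 0.349% of all genes. The median log2 difference at 6 hours was 0.60 for the members and 0.01 over all genes. All 25 were also higher at 48 hours. Another 5 members rose at 48 hours and did not pass the test at 6 hours, namely ANGPTL4, P4HA1, LOX, KDM4C and RORA.

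The direct comparison of PGG 48 h with PGG 6 h tested the difference between the exposures. Here 29 members were higher at 48 hours, against 22.4% of all genes, and DDIT4 was lower (22% of all genes were lower). Of the 29, 13 passed the stricter cut-offs, against 2.53% of all genes. The median log2 difference was 1.28 for the members and -0.01 over all genes. CA12, AK4 and STC1 did not pass this test.

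**Figure D2:**
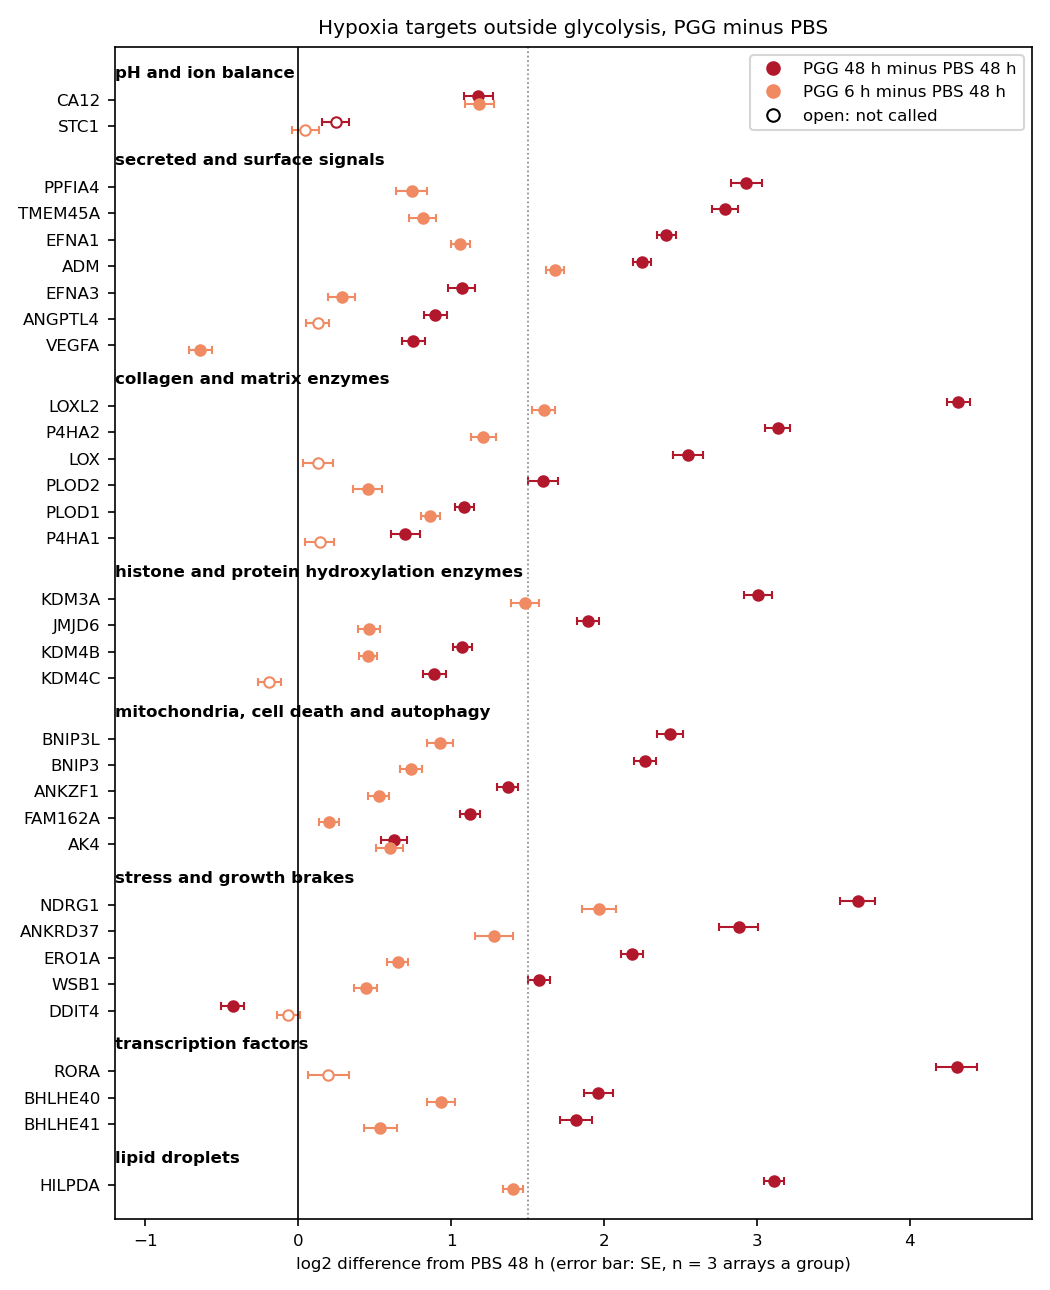
Log2 difference of each measured member from PBS 48 h (x axis), for PGG 48 h and PGG 6 h, grouped by role; error bars are standard errors with 3 arrays a group, open circles did not pass the test and the dotted line marks 1.5. All but DDIT4 and STC1 were called higher at 48 hours, VEGFA lay on opposite sides of 0 at the 2 times, and CA12 and AK4 were about as high at 6 hours as at 48 hours.

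RNA quality differed between the groups. The log2 signal of the 3′ control probe set of ACTB exceeded that of the 5′ one by 2.14, 4.03 and 2.67 on the PGG 48 h arrays, by 1.13 to 1.23 on the PGG 6 h arrays and by 0.96 to 1.57 on the PBS arrays. PGG 48 h replicate 2 also had a GAPDH gap of 1.83, against 0.13 to 0.39 on the other 8 arrays. Without that array 31 members rose, 20 of them past the stricter cut-offs, and the median was 1.85. Markers of hepatocytes such as ALB had a list mean of 11.72 to 11.74 in PGG 48 h, 12.07 to 12.12 in PGG 6 h and 11.83 to 11.91 in PBS, so markers of the labelled cell type were present. Of 9 measured hepatocyte markers 4 rose and 4 fell at 48 hours, APOB falling by 1.99 and TTR being 1.00 higher on the log2 scale, while ALB differed by -0.09. The list means of endothelial and leukocyte markers lay between 4.26 and 5.27 on every array. The part of RNA quality in the results at 48 hours was not tested beyond leaving out that array.

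The 7 measured members grouped as secreted and surface signals, with the scaffold protein PPFIA4 placed among them, all rose at 48 hours. Of these, 5 also rose at 6 hours. PPFIA4 encodes a liprin scaffold protein, and its probe set (214978_s_at) read 6.79, 7.07 and 6.80 in PGG 48 h, 4.70 on all 3 arrays of PGG 6 h, and 4.08, 4.04 and 3.75 in PBS. The groups did not overlap, and the log2 difference from PBS was 2.93 ± 0.10 (SE, n = 3 arrays a group, as below) at 48 hours and 0.74 ± 0.10 at 6 hours. In PBS this probe set lay below the median signal of the arrays (5.16 to 5.20), and with no detection calls in the table it was not shown to be above background there, so the differences are not exact folds. TMEM45A, a transmembrane protein (219410_at), read 11.90, 12.13 and 11.84 in PGG 48 h, 9.98 on all 3 arrays of PGG 6 h, and 9.13, 9.29 and 9.08 in PBS. The groups did not overlap, with PGG 48 h 6.92-fold and PGG 6 h 1.76-fold above PBS.

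EFNA1, a ligand of Eph receptors (202023_at), read 11.21, 11.19 and 11.19 in PGG 48 h, 9.81, 9.87 and 9.87 in PGG 6 h, and 8.71, 8.80 and 8.86 in PBS. The 3 groups stood apart, at 5.30-fold above PBS at 48 hours and 2.08-fold at 6 hours. Its relative EFNA3 was 1.07 ± 0.09 higher at 48 hours and 0.28 ± 0.09 higher at 6 hours. The 6-hour call of EFNA3 (adjusted p = 0.038, limma) was lost without PBS replicate 1 (0.12), PBS replicate 2 (0.12), PGG 6 h replicate 2 (0.12) or PGG 6 h replicate 3 (0.12), and without PGG 48 h replicate 3 (0.050).

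ADM, which encodes the vasodilator peptide adrenomedullin (202912_at), read 10.49, 10.43 and 10.44 in PGG 48 h, 9.83, 9.92 and 9.91 in PGG 6 h, and 8.18, 8.24 and 8.20 in PBS. Most of its difference was present by 6 hours, with log2 differences of 2.25 ± 0.06 at 48 hours and 1.68 ± 0.06 at 6 hours. ANGPTL4, an inhibitor of lipoprotein lipase, was 0.90 ± 0.08 higher at 48 hours and differed by 0.13 ± 0.08 at 6 hours (adjusted p = 0.30, limma). It averaged 5.87 in PGG 6 h and 5.75 in PBS and was not shown to be above background there.

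VEGFA, the main growth factor of blood vessels (210512_s_at), was the only member called in opposite directions at the 2 times. It read 11.14, 11.18 and 11.29 in PGG 48 h, 9.89, 9.69 and 9.85 in PGG 6 h, and 10.40, 10.50 and 10.45 in PBS. PGG 48 h arrays were all above and PGG 6 h arrays all below the PBS arrays. The log2 difference from PBS was 0.75 ± 0.07 at 48 hours (adjusted p = 8.5e-06, limma) and -0.64 ± 0.07 at 6 hours (adjusted p = 8.4e-05). Its 4 probe sets agreed in direction, with differences of 0.75 to 0.94 at 48 hours and -0.76 to -0.54 at 6 hours, of which 3 passed the test at 6 hours.

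All 6 collagen and matrix enzymes rose at 48 hours, and 4 of them rose at 6 hours. LOXL2, an oxidase that cross-links collagen (202998_s_at), read 10.66, 10.63 and 10.60 in PGG 48 h, 7.87, 7.95 and 7.94 in PGG 6 h, and 6.17, 6.43 and 6.34 in PBS. It was 19.9-fold above PBS at 48 hours and 3.05-fold at 6 hours, with no overlap between the groups. Its 3 other probe sets, all with a mean signal under 5.2, did not pass the test at 48 hours and differed by -0.02 to 0.49.

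LOX, a related oxidase (215446_s_at), read 11.07, 11.13 and 11.05 in PGG 48 h, 8.67, 8.61 and 8.72 in PGG 6 h, and 8.74, 8.31 and 8.56 in PBS. Here the PGG 6 h arrays overlapped the PBS arrays, and only PGG 48 h stood apart, 5.84-fold above PBS. The difference at 6 hours was 0.13 with a 95% interval of -0.09 to 0.35, and all 3 probe sets rose at 48 hours, by 1.17 to 3.18.

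P4HA2, a catalytic subunit of collagen prolyl hydroxylase (202733_at), read 11.25, 11.40 and 11.33 in PGG 48 h, 9.35, 9.42 and 9.43 in PGG 6 h, and 8.13, 8.35 and 8.09 in PBS. It was 8.79-fold above PBS at 48 hours and 2.31-fold at 6 hours, while its other probe sets differed by 0.60 and -0.15 at 48 hours, the first of them passing the test. P4HA1, another catalytic subunit, rose by 0.70 ± 0.09 at 48 hours and did not pass the test at 6 hours (adjusted p = 0.36, limma). The second probe set of P4HA1, at a mean signal of 2.51, differed by -0.07 at 48 hours and did not pass the test.

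PLOD2, a lysyl hydroxylase of collagen (202620_s_at), read 11.59, 11.76 and 11.65 in PGG 48 h, 10.63, 10.44 and 10.49 in PGG 6 h, and 9.99, 10.27 and 9.94 in PBS. Its log2 difference of 1.60 ± 0.10 at 48 hours lay just past the cut-off of 1.5, and that at 6 hours was 0.45 ± 0.10. PLOD1 was 1.09 ± 0.06 higher at 48 hours and 0.86 ± 0.06 higher at 6 hours. The difference of PLOD1 between the exposures, 0.22 (adjusted p = 0.015, limma), lost its call without PGG 6 h replicate 1 (0.057), PGG 6 h replicate 2 (0.0503) or PGG 48 h replicate 3 (0.059). Fibroblast markers had list means of 5.39 to 5.5 in PGG 48 h, 4.94 to 5.05 in PGG 6 h and 4.9 to 4.97 in PBS. Of the 6 markers 2 rose and 2 fell at 48 hours, with LUM 3.27 higher on the log2 scale from a PBS mean of 2.93, which was not shown to be above background. Their part in the rise of the collagen enzymes was not tested.

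The 4 histone demethylases and protein hydroxylases rose at 48 hours, and 3 of them rose at 6 hours. KDM3A, a histone demethylase that itself uses oxygen (212689_s_at), read 11.07, 11.30 and 11.16 in PGG 48 h, 9.61, 9.64 and 9.71 in PGG 6 h, and 8.17, 8.34 and 8.0 in PBS. All 3 groups were apart, at 8.04-fold above PBS at 48 hours and 2.80-fold at 6 hours. Its second probe set, at a mean signal of 3.13, rose by 0.53 at 48 hours and did not pass the test at 6 hours. JMJD6, a lysyl hydroxylase of nuclear proteins (212723_at), read 10.75, 10.93 and 10.80 in PGG 48 h, 9.39 on all 3 arrays of PGG 6 h, and 8.83, 8.97 and 8.99 in PBS. It was 1.90 ± 0.07 higher at 48 hours and 0.46 ± 0.07 higher at 6 hours, and 3 of its 4 probe sets rose at 48 hours.

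KDM4B was 1.07 ± 0.06 higher at 48 hours and 0.46 ± 0.06 higher at 6 hours, with 4 of its 8 probe sets higher and none lower at 48 hours. KDM4C rose at 48 hours (0.89 ± 0.08) and differed by -0.19 ± 0.08 at 6 hours (adjusted p = 0.10, limma), with all PGG 6 h arrays below the PBS arrays. Its brightest probe set, used here, averaged 5.56 in PGG 6 h and 5.75 in PBS and was not shown to be above background there. Among the 4 probe sets of KDM4C, 2 rose and 1 fell at 48 hours, the one that fell by 0.42 having a mean signal of 4.20.

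Of the mitochondrial, cell death and autophagy genes, all 5 rose at both times. BNIP3, a receptor that marks mitochondria for autophagy (201849_at), read 12.20, 12.22 and 12.24 in PGG 48 h, 10.72, 10.66 and 10.70 in PGG 6 h, and 10, 10.05 and 9.81 in PBS. BNIP3L, its close relative (221478_at), read 12.18, 12.14 and 12.26 in PGG 48 h, 10.67, 10.63 and 10.76 in PGG 6 h, and 9.81, 9.89 and 9.58 in PBS. The pair had similar log2 differences, 2.27 ± 0.07 for BNIP3 and 2.43 ± 0.09 for BNIP3L at 48 hours, and 0.74 ± 0.07 for BNIP3 and 0.93 ± 0.09 for BNIP3L at 6 hours.

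ANKZF1, which acts on stalled ribosomes, rose by 1.37 ± 0.07 at 48 hours, just short of the cut-off of 1.5, and by 0.53 ± 0.07 at 6 hours. AK4, an adenylate kinase of the mitochondrial matrix, was 0.63 ± 0.09 higher at 48 hours and 0.60 ± 0.09 higher at 6 hours. The difference between the exposures was 0.03 for AK4, with a 95% interval of -0.16 to 0.22. Of the 4 probe sets of AK4, 3 rose at 48 hours and 3 at 6 hours. Between the exposures they differed by -0.43 to 0.11, and 1 of them was lower at 48 hours.

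FAM162A, a mitochondrial protein linked to cell death in hypoxia, was 1.12 ± 0.07 higher at 48 hours and 0.20 ± 0.07 higher at 6 hours. Its call at 6 hours (adjusted p = 0.044, limma) was lost without any 1 of PBS replicates 1 to 3, PGG 6 h replicates 2 and 3 or PGG 48 h replicate 3, with adjusted p-values of 0.057 to 0.16. The 3 brightest of its 5 probe sets differed by 1.09 to 1.12 at 48 hours. A dimmer one went another way in time, with 1.06 at 48 hours and 1.61 at 6 hours, and the fifth, at -0.05, did not pass the test at 48 hours.

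Of the stress and growth genes, 4 of 5 rose at both times. NDRG1, a stress-induced protein that slows growth (200632_s_at), had the largest difference of any member at 6 hours. It read 11.77, 12.07 and 11.95 in PGG 48 h, 10.14, 10.32 and 10.25 in PGG 6 h, and 8.14, 8.52 and 8.15 in PBS. The groups did not overlap, at 12.6-fold above PBS at 48 hours and 3.91-fold at 6 hours.

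ANKRD37, an ankyrin repeat protein (227337_at), read 8.55, 8.73 and 8.55 in PGG 48 h, 7.01 on all 3 arrays of PGG 6 h, and 5.74, 6.03 and 5.42 in PBS. It was 7.36-fold above PBS at 48 hours and 2.43-fold at 6 hours, and its PBS arrays had the widest spread of all members (SD 0.31). Its PBS mean of 5.73 was not shown to be above background, so these folds are not exact. A second probe set of ANKRD37, at a mean signal of 3.54, differed by -0.07 at 48 hours and passed the test at neither time. ERO1A, the oxidase that drives disulphide formation in the endoplasmic reticulum (225750_at), read 11.66, 11.78 and 11.79 in PGG 48 h, 10.17, 10.23 and 10.23 in PGG 6 h, and 9.61, 9.62 and 9.45 in PBS. All 3 probe sets of ERO1A rose at both times, by 2.18 to 2.75 at 48 hours and by 0.28 to 0.65 at 6 hours.

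WSB1, a subunit of a ubiquitin ligase (201296_s_at), read 10.80, 10.74 and 10.80 in PGG 48 h, 9.65, 9.65 and 9.64 in PGG 6 h, and 9.07, 9.33 and 9.22 in PBS. Its rise at 48 hours (1.57 ± 0.07) was the smallest of those past the stricter cut-offs. At 6 hours its probe sets disagreed, as the brightest pair rose by 0.44 and 0.32 while another pair, with mean signals of 5.62 and 5.07, fell by 0.57 and 0.58. Averaged over its 5 probe sets, the difference at 6 hours was -0.10 (adjusted p = 0.22, limma). A probe set annotated to both INVS and WSB1, which the choice of probe sets left out, differed by -1.29 at 48 hours and by -1.15 at 6 hours.

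DDIT4, an inhibitor of the growth kinase complex mTORC1, was singled out after its values were seen as the member that fell. Its probe set (202887_s_at) read 10.55, 10.53 and 10.51 in PGG 48 h, 10.91, 10.88 and 10.89 in PGG 6 h, and 10.85, 11.12 and 10.91 in PBS. The PGG 48 h arrays lay below all others, whereas PGG 6 h and PBS overlapped. It fell by 0.43 ± 0.08 on the log2 scale at 48 hours (adjusted p = 0.00072, limma), a level of 0.742 of that in PBS, and differed by -0.07 ± 0.08 at 6 hours.

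Of the 3 transcription factors, all rose at 48 hours. RORA, a nuclear receptor of the circadian clock (226682_at), read 9.74, 10.12 and 9.58 in PGG 48 h, 5.65, 5.59 and 5.87 in PGG 6 h, and 5.44, 5.41 and 5.67 in PBS. It was 19.8-fold above PBS at 48 hours. At 6 hours the arrays overlapped PBS, and the difference was 0.20 with a 95% interval of -0.10 to 0.50. RORA read under 6 in PBS and PGG 6 h and was not shown to be above background there, so the fold is not exact. Its difference between the exposures, 4.11 ± 0.13, was the largest of any member and ranked 15 among all genes. Of its 8 probe sets 6 rose at 48 hours, by 0.59 to 4.31, and none passed the test at 6 hours. A single dim one, at a mean signal of 4.83, fell by 0.33 at 48 hours.

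BHLHE40, a repressor that feeds back on the circadian clock (201170_s_at), read 11.16, 11.31 and 11.23 in PGG 48 h, 10.23, 10.19 and 10.19 in PGG 6 h, and 9.24, 9.48 and 9.09 in PBS. Its groups stood apart, at 3.90-fold above PBS at 48 hours and 1.91-fold at 6 hours. BHLHE41, its paralog (221530_s_at), was dim and read 5.96, 5.98 and 5.89 in PGG 48 h, 4.86, 4.56 and 4.57 in PGG 6 h, and 4.14, 4.31 and 3.93 in PBS. The rise of BHLHE41 at 48 hours, 1.82 ± 0.11, rests on this probe set, as its 3 others, with mean signals of 2.63 to 3.37, differed by -0.04 to 0.18 and did not pass the test. In PBS its signal, too, lay below the array median and was not shown to be above background.

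HILPDA, which sits on lipid droplets and blocks the lipase ATGL (218507_at), read 11.81, 11.81 and 11.86 in PGG 48 h, 10.07, 10.14 and 10.15 in PGG 6 h, and 8.62, 8.77 and 8.76 in PBS. It stood 8.63-fold above PBS at 48 hours and 2.65-fold at 6 hours, with no overlap. Its second probe set gave 2.91 at 48 hours and 1.39 at 6 hours, beside 3.11 and 1.40 for the first.

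CA12 and STC1 act in pH and ion balance, and 1 of them rose. CA12, a membrane carbonic anhydrase, was 1.18 ± 0.09 higher at 48 hours and 1.18 ± 0.09 higher at 6 hours. The difference between the exposures was -0.01 for CA12, with a 95% interval of -0.22 to 0.20. Of its 7 probe sets 5 rose at both times, and the 2 with the lowest signal did not pass the test at either. STC1, a secreted hormone of calcium and phosphate balance that is given by array because it did not pass the test, read 5.39, 5.33 and 5.06 in PGG 48 h, 5.05, 5.04 and 5.10 in PGG 6 h, and 4.91, 5.08 and 5.06 in PBS. The 3 groups of STC1 overlapped, and the difference at 48 hours was 0.24 ± 0.09 (adjusted p = 0.055, limma). STC1 passed the test under 5 alternatives, which made 32 members higher. Its adjusted p was 0.0056 without PGG 48 h replicate 3, 0.0050 with the mean of its probe sets, and 0.036 to 0.039 with 1 probe set per gene in the fit, a second quantile normalization or median centring. Another of its probe sets, at a mean signal of 4.12, rose by 0.75 at 48 hours.

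**Figure D3:**
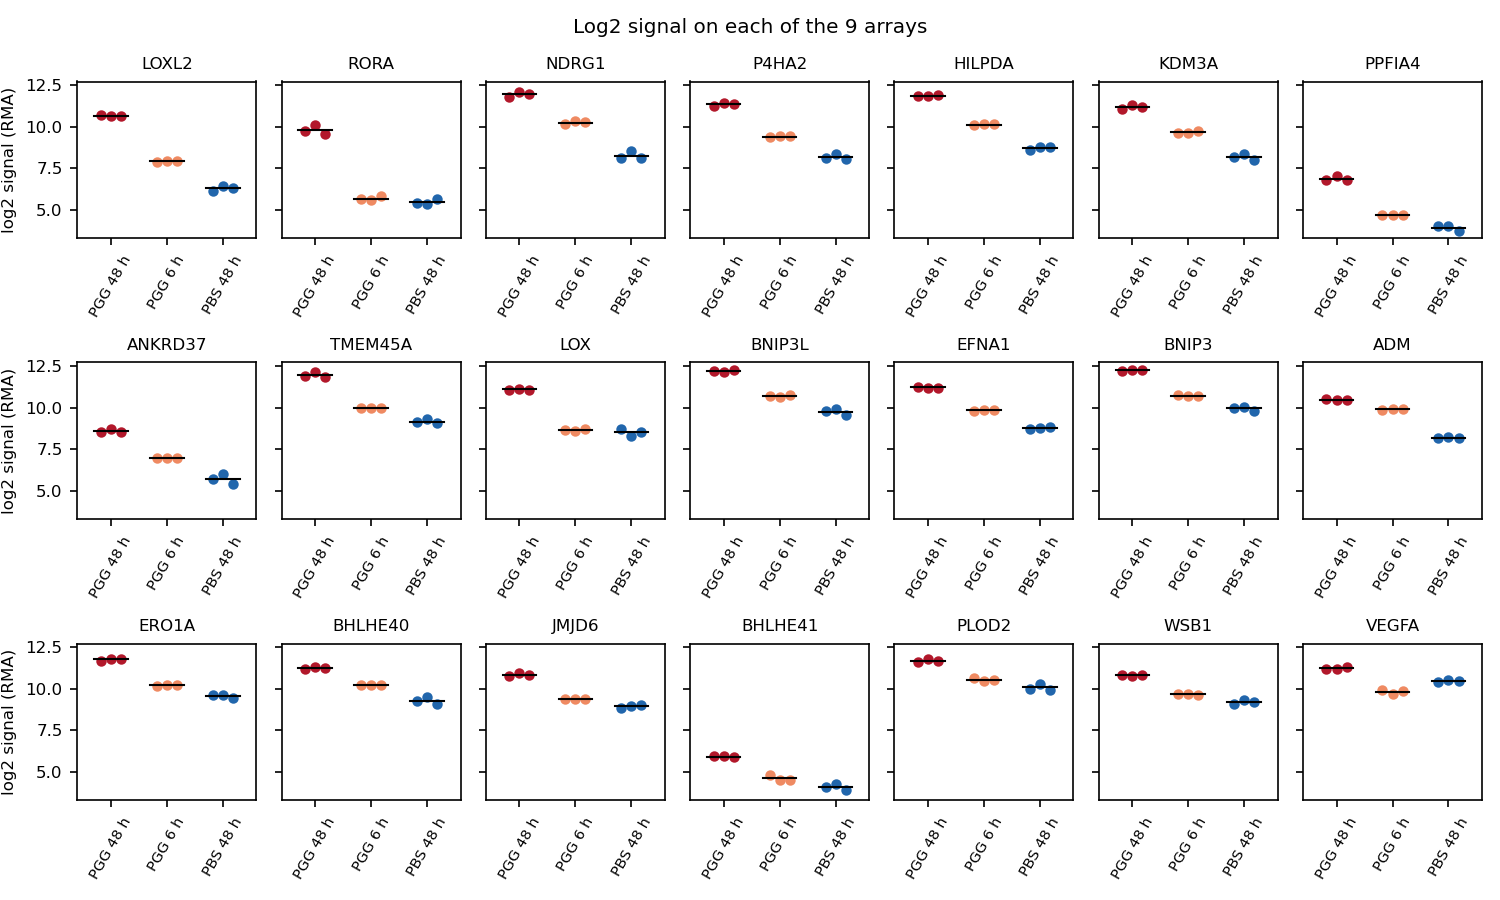
Log2 RMA signal (y axis, shared) on each of the 9 arrays for the 20 members past the stricter cut-offs and for VEGFA; points are arrays and lines are group means of 3 arrays. In every panel except VEGFA the PGG 6 h values lie between those of PGG 48 h and PBS or, for RORA and LOX, overlap those of PBS.

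PPFIA4, TMEM45A, JMJD6 and ANKRD37 had 1 identical value, to the 2 decimals deposited, on all 3 PGG 6 h arrays. Such identity held for 4 of the 33 members (12.1%) in PGG 6 h, against 1.69% of all 54613 probe sets, and for none of the members in PGG 48 h or PBS. Over all probe sets it was more frequent where the PGG 6 h mean lay between the other group means (3.04%) than elsewhere (0.749%), and 30 of the 33 members had such a mean. The deposited values thus hold no spread for these 4 genes in PGG 6 h, and their standard errors include that lack of spread. RMA combines arrays, so whether the samples themselves differed as little was not tested.

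Counted by probe set, 69 of the 96 were higher at 48 hours, against 18.8% of all probe sets, 3 were lower, against 20.2%, and 24 did not pass the test. The counts differed with signal. Of the 56 probe sets with a mean signal of 6 or more, 53 were higher and 1 was lower (33.5% and 36.2% of all probe sets of that signal). Of the 40 dimmer ones, 16 were higher and 2 were lower (10.3% and 11% of all such probe sets). Of the 24 members with more than 1 probe set, 22 had none that fell at 48 hours, and 10 had all of them higher.

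**Figure D4:**
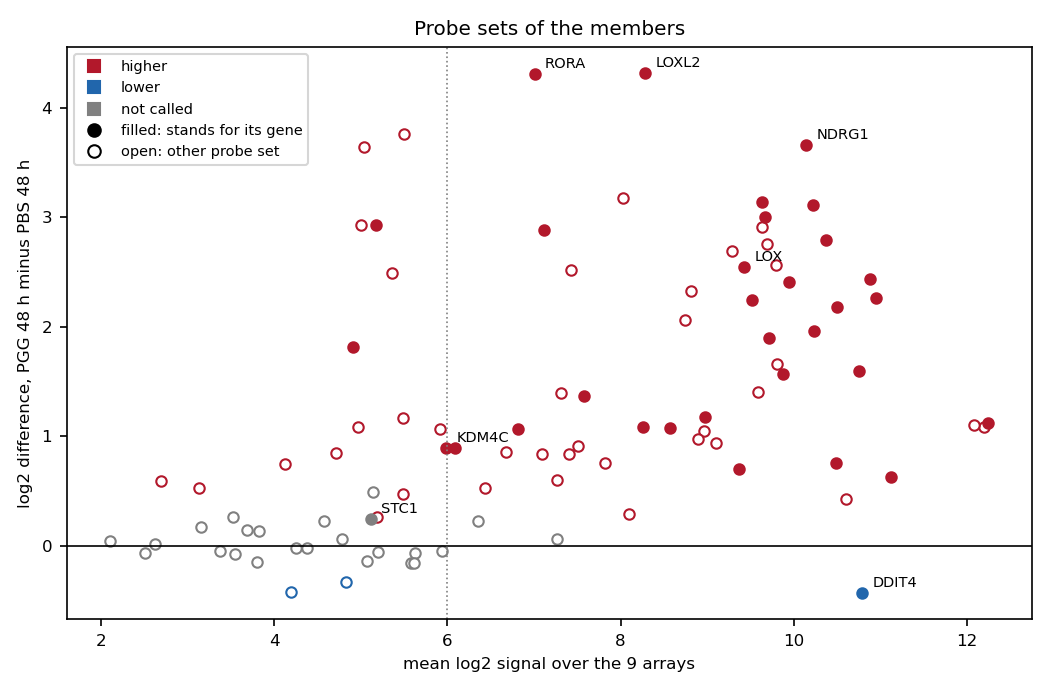
Mean log2 signal over the 9 arrays (x axis) against the log2 difference between PGG 48 h and PBS 48 h (y axis) for the 96 probe sets of the members; filled circles stand for their gene, open circles are further probe sets and the dotted line marks a signal of 6. Right of that line 53 of 56 probe sets are higher, and the grey ones that did not pass the test lie mostly to its left. The mean includes the PGG 48 h arrays, so a rise at 48 hours itself moves a probe set to the right.

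Other genes of the pathway were counted for comparison, in lists that, like the members, were chosen with earlier results of these data known. At 48 hours 6 of 17 genes of the oxygen sensing machinery rose (35.3%, against 22.9% of all genes) and 4 fell (23.5%, against 23.2%). Their median log2 difference was 0.16. At 6 hours 3 rose (17.6%, against 15.5% of all genes) and 1 fell (5.88%, against 15.5%). HIF1A, the main alpha subunit, fell by 0.42 at 48 hours (11.76 in PGG 48 h, 12.18 in PBS), and its inhibitor HIF1AN fell by 0.35. EGLN3, a prolyl hydroxylase that is itself a HIF target, rose by 1.90 at 48 hours (5.06 in PBS, below the array median) and differed by 0.08 at 6 hours (adjusted p = 0.56, limma). EGLN1, the main oxygen sensor, was 0.97 higher at 48 hours and 1.01 higher at 6 hours.

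Among glycolytic and pyruvate targets, 14 of 20 measured genes rose (70%, against 22.9% of all genes) and 1 fell (5%, against 23.2%) at 48 hours. At 6 hours 13 rose (65%, against 15.5% of all genes) and none fell (against 15.5%). The medians were 0.81 at 48 hours and 0.41 at 6 hours. ENO2, an enolase, averaged 10.40 in PGG 48 h, 4.6 in PGG 6 h and 4.54 in PBS. It rose at 48 hours, and as its PBS and PGG 6 h signals lay below the array median, not shown to be above background, the difference of 5.86 is not an exact fold. PFKFB4, which sets the level of a glycolytic activator, was 4.54 higher at 48 hours and 3.39 higher at 6 hours. All 16 measured genes of a list of other hypoxia targets rose at 48 hours (100%, against 22.9% of all genes), with a median of 1.59. At 6 hours 9 rose (56.2%, against 15.5% of all genes) and 3 fell (18.8%, against 15.5%), with a median of 0.44. The differences of this list at 6 hours ran from -3.60 to 1.06, so its largest one was a fall. PPP1R3C, a regulator of glycogen synthesis, rose by 2.96 at 48 hours and IGFBP3, a carrier of insulin-like growth factors, by 2.88.

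Among 11 relatives of the collagen enzymes 3 rose (27.3%) and 3 fell (27.3%) at 48 hours (median -0.10), near the shares of all genes. PLOD3, the third lysyl hydroxylase, fell by 1.11, in contrast to the rise of PLOD1 and PLOD2. P3H2, a prolyl hydroxylase of collagen, rose by 2.32 at 48 hours, though its probe set without the _s_at or _x_at suffix differed by -0.10. Of 12 relatives of the histone demethylases 6 rose (50%) and 2 fell (16.7%) (median 0.27), JMJD1C, a relative of KDM3A, rising by 1.53 and KDM1A falling by 0.74. Of 13 other carbonic anhydrases 2 rose (15.4%) and 1 fell (7.69%) (median 0), with CA2 1.18 lower on the log2 scale. Among 11 further ephrins, angiopoietin-like factors and growth factors 4 rose (36.4%) and none fell (median 0.05). EFNB2 rose by 2.13, its PBS mean of 4.15 lying below the array median.

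**Figure D5:**
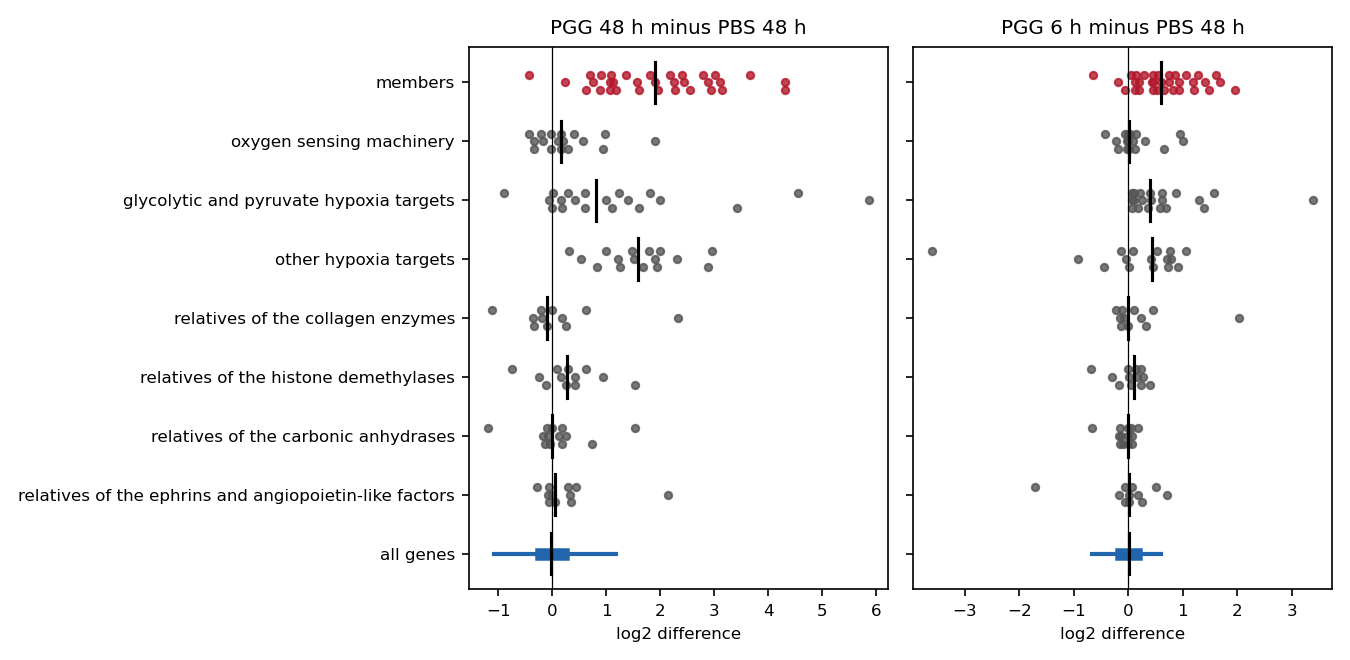
Log2 differences (x axis) of the 33 members and of 7 other gene lists, PGG 48 h minus PBS 48 h on the left and PGG 6 h minus PBS 48 h on the right; points are genes and black lines medians, and the blue bars give the middle 50% and 90% of all 19775 genes. The members and the other hypoxia targets lie furthest to the right at 48 hours, with medians of 1.90 and 1.59. All lists were chosen with earlier results of these data known.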

How the data were processed

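Expression in Huh7 cells was read on 9 Affymetrix arrays. According to the submitters' processing notes, the authors normalized them by RMA in Affymetrix Expression Console. They deposited log2 values with 2 decimals. The sources used here give no software version. RMA combines arrays, so a probe set's value on 1 array depends on the others. Of 54675 probe sets, 62 controls were left out. The platform annotation gave 41091 of the 54613 others 1 symbol, 1801 several and 11721 none. The probe set with the highest mean stood for each of 19775 genes.

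Groups were compared with limma 3.58.1 in R 4.3.3 (lmFit with 1 mean per group over 9 arrays, eBayes, two-sided) with Benjamini-Hochberg adjustment over 54613 probe sets. Rose and fell mean an adjusted p under 0.05. The stricter cut-offs, 0.005 on the q-value and 1.5 on the mean difference, come from the methods, which used a t-test and name no scale for the difference, read here as log2. The steps were tested on simulated data. The members and lists were chosen with earlier results of these data known. Values on every array are given for members past the stricter cut-offs in any comparison or called in opposite directions at the 2 times, and, for each other list, genes came from the 3 largest rises and falls at 48 hours, apart from exceptions named as such. The number of arrays limits the precision. Alternatives covered the probe set per gene, filter, normalization, weights, test, replicate block and leaving out each array.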

Additional observations from a re-analysis of the deposited data

Results flagged for a closer look

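For 30 of the 33 members the effect of PGG against PBS differed between the 2 exposure times by a test of the difference itself, the limma contrast of PGG 48 h with PGG 6 h at an adjusted p under 0.05 (22.4% of all genes were higher and 22% lower in that contrast). In log2 units, the difference was 4.11 for RORA, 2.71 for LOXL2, 2.42 for LOX and 2.19 for PPFIA4. It was 1.98 for TMEM45A, 1.93 for P4HA2, 1.71 for HILPDA, 1.69 for NDRG1, 1.60 for ANKRD37, 1.53 for BNIP3, 1.53 for ERO1A, 1.52 for KDM3A and 1.51 for BNIP3L. It was 1.44 for JMJD6, 1.39 for VEGFA, 1.35 for EFNA1, 1.28 for BHLHE41, 1.15 for PLOD2, 1.13 for WSB1, 1.08 for KDM4C and 1.03 for BHLHE40. Smaller differences were 0.92 for FAM162A, 0.84 for ANKZF1, 0.79 for EFNA3, 0.77 for ANGPTL4, 0.62 for KDM4B, 0.57 for ADM, 0.56 for P4HA1 and 0.22 for PLOD1. For DDIT4 it was -0.36, the only negative one. VEGFA and KDM4C had all their arrays above PBS at 48 hours and below PBS at 6 hours, and of the 2 only VEGFA passed the test at 6 hours. Time in culture differs between PGG 48 h and PGG 6 h as well, so exposure and time in culture cannot be told apart here.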

How the results depend on the processing

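Over 20 alternative settings, 1974 values of the 33 members were recomputed. Of these, 23 lost the call, 9 gained it and 7 changed sign with a call under the main or the alternative setting. The other 1935 kept their side of the threshold, and a change of sign without a call under either setting was counted among them. The lost calls, gained calls and changes of sign with a call touched 9 genes. Taking the mean of all probe sets of a gene lowered the members' median log2 difference to 1.22 (48 hours against PBS), 0.48 (6 hours against PBS) and 0.80 (48 against 6 hours), and left 14 members past the stricter cut-offs at 48 hours. Preferring probe sets without the _x_at and _s_at suffixes gave a median of 1.15 for 48 against 6 hours and 28 members higher at 48 hours. With only probe sets above log2 6 on at least 3 arrays, 2 members were lower at 6 hours, KDM4C joining VEGFA, and the medians were 0.65 (6 hours against PBS) and 1.35 (48 against 6 hours). This filter counted arrays of any group, so a probe set could pass through PGG 48 h alone. KDM4C passed in this way, averaging 6.64 in PGG 48 h, 5.56 in PGG 6 h and 5.75 in PBS. A second quantile normalization gave a median of 0.55 at 6 hours. With array weights it was 0.57, and 2 members were lower at 6 hours. Leaving out each array in turn, the medians ranged from 1.85 to 1.94 (48 hours), 0.55 to 0.66 (6 hours) and 1.23 to 1.33 (48 against 6 hours), and members higher from 31 to 32, 23 to 25 and 28 to 29. The methods' t-test called 31, 21 and 29 members higher after Benjamini-Hochberg adjustment, the calls of EFNA3, PLOD2, FAM162A and BHLHE41 at 6 hours being lost.

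Changes of sign are listed only where the main or the alternative setting gave a call. Among members, signs changed for WSB1 at 6 hours (-0.10 with the mean of all probe sets, -0.09 without suffixed probe sets), and, without suffixed probe sets, for P4HA1 (-0.067 at 48 hours, -0.10 for 48 against 6 hours), FAM162A (-0.05 at 48 hours, -0.077 for 48 against 6 hours) and BHLHE41 (-0.17 for 48 against 6 hours). Among other genes, EGLN1 changed sign with the mean of all probe sets (0.33 for 48 against 6 hours), and without suffixed probe sets P3H2 (-0.10 at 48 hours, -0.28 at 6 hours), KDM5B (-0.23 at 48 hours, -0.04 for 48 against 6 hours) and KDM6A (-0.22 at 48 hours, 0.013 at 6 hours, -0.23 for 48 against 6 hours). The cause was not tested.

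The replicate numbers were not shown to pair the arrays. For arrays with the same number, the 9 correlations of their deviations ran from -0.09 to 0.16, and 3 passed 0.1. Those of replicates 1 and 2 were all positive and those of replicate 3 all negative, so a shared handling of same-numbered arrays was not excluded. With a replicate block, 31, 24 and 29 members were higher, FAM162A losing its call at 6 hours (adjusted p = 0.065, limma), and 9007, 5926 and 8640 genes were called, against 9122, 6135 and 8772 without it.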
